A study of Mus musculus with 4 samples.

Results

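The 10 genes described here encode receptor chains for interleukin 6, interleukin 10, interleukin 12, interleukin 18, interleukin 27 and interferon gamma, and they are 10 of the 12393 genes that could be named on the arrays. They were taken as every probe set (a group of short oligonucleotides that reads 1 transcript) that the platform annotation assigns to 1 member symbol alone. This gave 16 probe sets: 1 each for Il12rb1, Il12rb2, Il18r1, Il18rap, Il27ra and Ifngr1, 2 each for Il6ra and Ifngr2, and 3 each for Il6st and Il10ra. The samples were untreated spleen T cells of C57Bl/6 mice, separated in a cell sorter by their CD44, CD4 and CD8 staining, and the study set naive cells lacking Gfi1, a zinc finger repressor of transcription, beside their wildtype counterparts. The 4 groups were CD4+ and CD8+ T cells labelled Gfi1 knockout and CD4+ and CD8+ T cells labelled wildtype, each labelled CD44 low. Each group had 1 array carrying the pooled RNA of 2 mice. Neither mouse age nor the design of the knockout allele is stated in the labels. With 1 array per group there is no spread between animals to set a difference against, so precision is limited by having 4 arrays.

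Cytokine receptors of this kind pair a chain that binds the cytokine with a chain that carries the signal, so a T cell needs both to respond. IL-6, IL-10, IL-12, IL-27 and interferon gamma signal through Janus kinases and STAT factors. The IL-18 receptor belongs to the IL-1 receptor family and signals through the adaptor MyD88. IL-12 and IL-18 act together on T cells to raise interferon gamma, while IL-10 restrains inflammation, and resting T cells are known for strong IL-6 receptor expression.

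The subset labels matched their markers, with Cd4 reading 5470 and 5901 in CD4 cells and 8.4 and 18.9 in CD8 cells, knockout label first. Cd8a read 89.6 and 67.2 in CD4 cells and 16639 and 15920 in CD8 cells. Cd8b1 was less clean, with 970.5 and 312 in CD4 cells against 25715 and 26222 in CD8 cells. The genotype labels ran along with another difference. Cd44, the receptor by which the cells were sorted as low, read 196 and 252 on the arrays labelled knockout but 8136 and 5740 on those labelled wildtype, and the sample titles end in N for the former and in M for the latter, a letter that the labels do not explain. Gfi1 itself read 2891 and 2447 on the arrays labelled knockout against 2272 and 1158, so its signal did not check the labels. Of 14 memory and effector genes, 14 were at least 2-fold lower in CD4 and 12 in CD8 cells on the arrays labelled knockout, and their summed signal was 5918 and 21519 there against 102461 and 85267. Of 8 naive T cell genes, 5 were at least 2-fold higher in CD4 and 1 in CD8 cells on the arrays labelled knockout. The summed signal of 11 dendritic and myeloid genes was 3685 on the array labelled wildtype CD8 and between 456 and 1162 on the others. That of 6 MHC class II genes was 48632 on wildtype CD8 against 3487 to 5595 elsewhere. For 8 natural killer cell genes the sum was 36518 (wildtype) and 27181 (knockout) on the CD8 arrays and 9895 and 4326 on the CD4 arrays. Most of the sum on the CD8 arrays came from Klrd1 (13450 and 15979) and Nkg7 (14569 and 10407), wildtype label first. Ncr1, of the same list, was below the floor on all 4 arrays. Of 9 B cell genes, 5 were below the floor on all 4 arrays, Cd79a and Ms4a1 among them; on the arrays labelled knockout 2 of 3 compared in CD4 cells (Cd22 and Cd79b) and 2 of 4 in CD8 cells (Cd22 and Blk) were at least 2-fold lower. Cd22 read 154 and 1124 in CD4 and 76.3 and 615 in CD8 cells, knockout label first, and fell (limma, adjusted p = 0.0294). Cd79b was level in CD8 cells (738 and 759). Ighm, the brightest of the list, was slightly higher under the knockout label, with 16664 and 13985 in CD4 and 12666 and 10871 in CD8 cells. The summed signal of the 9 genes, most of it Ighm, was 17053 and 15705 in CD4 and 13709 and 12671 in CD8 cells. The Cd44 and memory and effector differences go along with every comparison between the labelled genotypes below. The high MHC class II and dendritic sums of the wildtype CD8 array go along with the genotype comparison in CD8 cells. They also go along with CD8 against CD4 under the wildtype label. The part of any of these differences in the receptor values was not tested.

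Signals under 93.9, the 40th percentile of all values, were treated as a floor and are called below the floor. Each gene was read by its brightest probe set on average; all 10 receptor genes were above it on at least 1 array and 8 on all 4; Il18rap and Il12rb2 were not. The receptors did not move as a block. In CD4 cells 3 of 10 were at least 2-fold lower on the array labelled knockout (Il18rap, Il12rb1 and Il10ra), where 7.72% of all genes compared were, and 1 of 10 was at least 2-fold higher (Ifngr2), where 2.07% of genes were. In CD8 cells 2 of 9 were at least 2-fold lower (Il18rap and Il10ra), against 4.24% of genes, and again Ifngr2 alone was higher, against 1.21% of genes. The median log2 difference of the members was 0.05 in CD4 and 0.10 in CD8 cells, beside -0.02 in each subset over all genes compared. A model over all 4 arrays with genotype label and subset as terms (limma, Benjamini-Hochberg over 8596 genes) called 1 of the 10 genes as lower on the arrays labelled knockout, Il18rap, where it called 0.465% of genes as lower, and 0 as higher, where it called 0.0814%. At an unadjusted p under 0.05 the model held 6 of the 10 genes, against 13.1% of all genes. Its error is the disagreement between the subsets over 1 degree of freedom, joined with a prior from other genes, and not a spread between mice. Because RNA came from whole sorted populations, fewer cells with a receptor and less of its RNA per cell cannot be told apart.

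**Figure D1:**
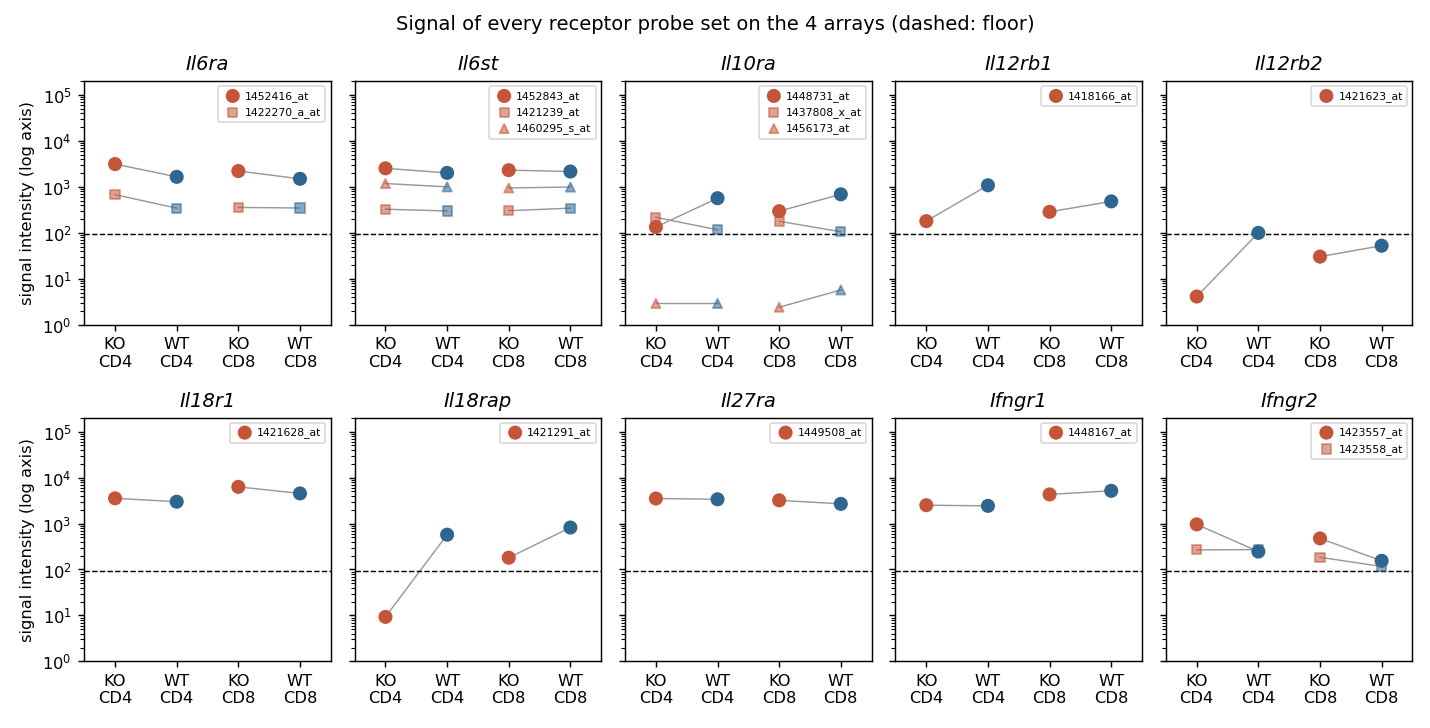
Signal intensity (log axis) of all 16 probe sets of the 10 receptor genes on the arrays labelled knockout (KO, red) and wildtype (WT, blue) in CD4 and CD8 cells; circles mark the probe set used for the gene, squares and triangles its other probe sets, and the dashed line the floor of 93.9. Il18rap, Il12rb1 and the main probe set of Il10ra are lower on the arrays labelled knockout in both subsets, and the main probe set of Ifngr2 is higher. Il27ra, Il6st and Ifngr1 lie nearly level between the labelled genotypes, and Ifngr1 is higher in CD8 than in CD4 cells.

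The IL-18 receptor showed the sharpest contrast between its chains. Il18r1, which encodes the chain that binds IL-18, read 3535 on the array labelled knockout CD4, 2981 on wildtype CD4, 6269 on knockout CD8 and 4515 on wildtype CD8. It was slightly higher on the array labelled knockout in each subset, by log2 differences of 0.25 (CD4) and 0.47 (CD8), and was not called (limma, adjusted p = 0.307). Il18rap, which encodes the accessory chain needed for the signal, read 9.3 on knockout CD4, 571 on wildtype CD4, 180 on knockout CD8 and 818 on wildtype CD8. Both arrays labelled knockout lay below both labelled wildtype. The difference was at least 6.09-fold in CD4 cells, where the knockout array was below the floor, and 4.54-fold in CD8 cells, and Il18rap fell in the fit (adjusted p = 0.0471). In CD4 cells 1.32% of genes, and in CD8 cells 0.829%, were as low or lower. The call was narrow: the adjusted p was 0.111 after quantile normalization, 0.0764 with arrays centred on their medians, 0.0806 with averaged probe sets, 0.094 without the trend in the prior, 0.271 with a floor at the 60th percentile and 0.845 without the filter on low genes, and the lowest adjusted p among the alternatives was 0.000628, with the floor at the 25th percentile.

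Il18r1 and Il18rap stand beside each other on the plus strand of chromosome 1 (GRCm38.p6, RefSeq), with 49.36 kilobases from the last listed start of Il18r1 to the start of Il18rap. Their promoter windows, 250 bases before to 50 after the start, are shown because the chains differed so clearly in signal although the genes are neighbours. For Il18r1 the last of 3 listed windows is printed, chr1:40465756-40466055, and for Il18rap the only window, chr1:40515112-40515411. Capitals mark matches to TTCNNNGAA, the gamma-activated site bound by STAT factors, which reads the same on both strands.
Il18r1: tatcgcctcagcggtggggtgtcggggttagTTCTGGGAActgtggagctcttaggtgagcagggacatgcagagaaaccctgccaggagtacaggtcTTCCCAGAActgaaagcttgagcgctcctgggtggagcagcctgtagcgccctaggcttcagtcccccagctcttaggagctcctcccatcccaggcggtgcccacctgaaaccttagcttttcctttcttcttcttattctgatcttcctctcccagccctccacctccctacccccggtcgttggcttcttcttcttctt
Il18rap: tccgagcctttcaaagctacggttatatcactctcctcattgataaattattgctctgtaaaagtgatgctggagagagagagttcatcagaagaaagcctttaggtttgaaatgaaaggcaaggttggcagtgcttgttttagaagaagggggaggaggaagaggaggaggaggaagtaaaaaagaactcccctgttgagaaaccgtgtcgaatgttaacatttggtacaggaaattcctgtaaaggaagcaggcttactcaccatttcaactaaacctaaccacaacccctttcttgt
The Il18r1 window held 2 matches, which begin 219 and 152 bases before the start, while the other 2 Il18r1 windows and the Il18rap window held 0. Such a match was found in 8.3% of 32851 promoter windows. RefSeq windows were found for 7 of the 10 genes, 9 windows in all, and the other match was in Il12rb2, 123 bases before its start. No member window held GAAANNGAA (an interferon regulatory factor element, in 8.56% of all windows), AGGTGTGA (a T-box site, in 1.28%) or TAAATCAC (a Gfi1 site, in 0.578%), each searched on both strands. A match is a description of the letters only.

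Of the IL-12 receptor genes, Il12rb1 was lower in signal on the arrays labelled knockout, most of all in CD4 cells. Il12rb2 lay too near or below the floor to compare. Il12rb1, whose product is shared by the receptors for IL-12 and IL-23, read 179 on knockout CD4, 1078 on wildtype CD4, 286 on knockout CD8 and 481 on wildtype CD8. Both arrays labelled knockout were under both labelled wildtype. It was 6.01-fold lower in CD4 cells, where 1.34% of genes were as low or lower, and 1.68-fold lower in CD8 cells, where 6.62% were. The fit did not call it (log2 -1.67 ± 0.47 SE, adjusted p = 0.203), since its error counts the unequal differences of the subsets. Il12rb2, the chain that gives IL-12 its signal and that activated type 1 helper cells carry, read 4.1 on knockout CD4, 99.4 on wildtype CD4, 30.3 on knockout CD8 and 52.3 on wildtype CD8. Only wildtype CD4 lay above the floor, and barely, so its difference of at least 1.06-fold in CD4 cells says little and none is given for CD8 cells.

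Il10ra, the ligand-binding chain for IL-10, could not be given 1 direction because its probe sets went opposite ways. The probe set 1448731_at read 134 on knockout CD4, 565 on wildtype CD4, 295 on knockout CD8 and 687 on wildtype CD8, which is 4.23-fold and 2.33-fold lower on the arrays labelled knockout. Its arrays labelled knockout lay under both labelled wildtype (limma log2 -1.65 ± 0.35 SE, adjusted p = 0.115, not called). The probe set 1437808_x_at, of a kind that can bind related transcripts, read 217, 116, 178 and 105 on the same arrays in that order and was 1.87-fold and 1.69-fold higher on those labelled knockout. The third, 1456173_at, was below the floor throughout, between 2.4 and 5.7. The partner chain Il10rb, which IL-10 shares with other cytokines, read 2608 and 2913 in CD4 and 3742 and 5538 in CD8 cells, knockout label first. The array labelled knockout was 1.12-fold (CD4) and 1.48-fold (CD8) lower, and the gene was not called (limma, adjusted p = 0.377).

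**Figure D2:**
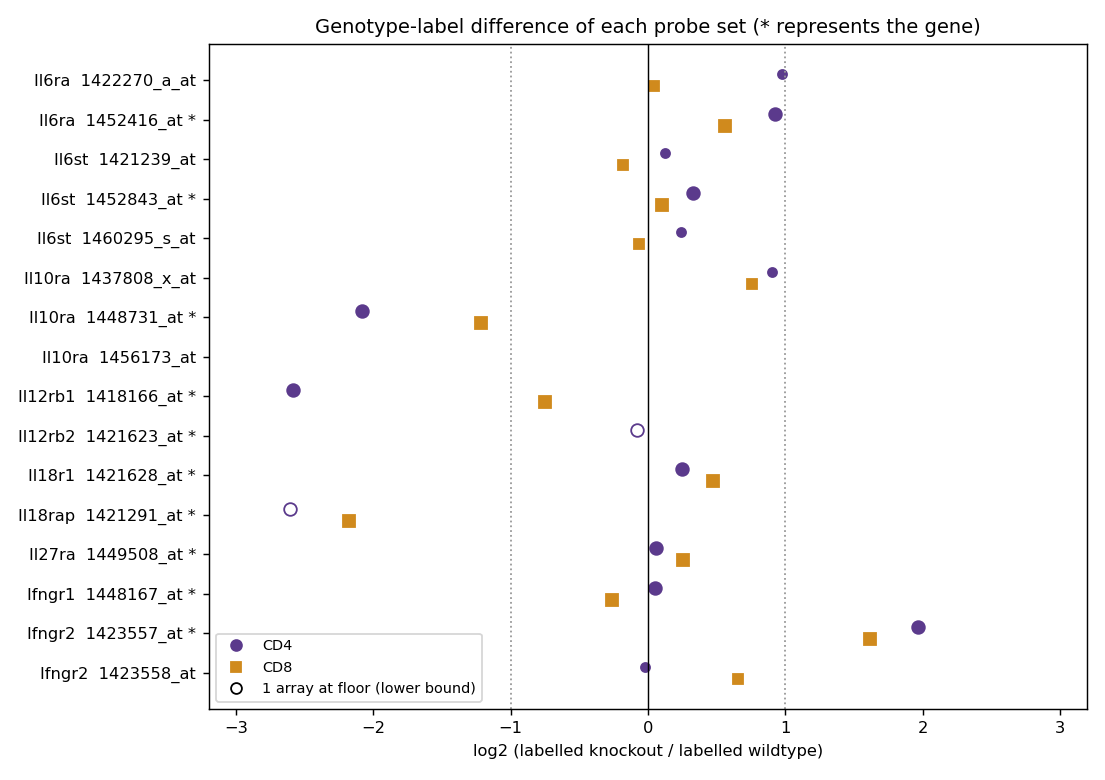
Log2 difference of the array labelled knockout over the array labelled wildtype (horizontal axis) for each of the 16 probe sets, in CD4 (circles) and CD8 cells (squares); open symbols are lower bounds with 1 array below the floor, an asterisk beside the name marks the probe set used for the gene, and dotted lines mark 2-fold. The probe sets of Il10ra lie on opposite sides of 0 at -2.08 and 0.90 in CD4 cells, and those of Ifngr2 at 1.97 and -0.02, whereas those of Il6ra lie together in CD4 cells at 0.92 and 0.98.

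Il6ra, the chain that binds IL-6, read 3124 on knockout CD4, 1646 on wildtype CD4, 2204 on knockout CD8 and 1493 on wildtype CD8 by its brighter probe set. Both arrays labelled knockout lay over both labelled wildtype, 1.90-fold in CD4 and 1.48-fold in CD8 cells. The fit did not call it (log2 0.74 ± 0.16 SE, adjusted p = 0.112). Its other probe set, 1422270_a_at, gave 675 against 343 in CD4 cells, 1.97-fold higher, but 356 against 346 in CD8 cells, 1.03-fold. The higher signal in CD4 cells was thus read by both probe sets and that in CD8 cells by 1 of them. Il6st encodes gp130, the signal chain that the IL-6 and IL-27 receptors share. Its brightest probe set read 2522 on knockout CD4, 2008 on wildtype CD4, 2304 on knockout CD8 and 2151 on wildtype CD8. Across its 3 probe sets the log2 difference between labelled genotypes ran from 0.12 to 0.33 in CD4 and from -0.18 to 0.10 in CD8 cells, and the gene was not called (limma, adjusted p = 0.597).

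Il27ra, the specific chain of the IL-27 receptor, was among the steadiest of the 10 genes. It read 3502 on knockout CD4, 3364 on wildtype CD4, 3194 on knockout CD8 and 2676 on wildtype CD8. The highest array was 1.31-fold over the lowest, and the labelled genotypes differed on the log2 scale by 0.06 (CD4) and 0.26 (CD8) (limma, adjusted p = 0.689).

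The interferon gamma receptor also split by chain. Ifngr1, which encodes the ligand-binding chain, read 2503 on knockout CD4, 2419 on wildtype CD4, 4294 on knockout CD8 and 5140 on wildtype CD8. The labelled genotypes differed on the log2 scale by 0.05 (CD4) and -0.26 (CD8), and the gene was not called (limma log2 -0.11 ± 0.14 SE, adjusted p = 0.821; the sign turned, to 0.16, with arrays centred on their medians). Ifngr2 encodes the signal chain, which type 1 helper cells are known to lose. Its brighter probe set, 1423557_at, read 958 on knockout CD4, 245 on wildtype CD4, 474 on knockout CD8 and 154 on wildtype CD8. Both arrays labelled knockout lay over both labelled wildtype, 3.91-fold in CD4 and 3.07-fold in CD8 cells, and 0.209% and 0.334% of genes were as high or higher. Even so the fit did not call it (log2 1.79 ± 0.31 SE, adjusted p = 0.0819). The other probe set, 1423558_at, annotated from the same sequence record, read 267, 271, 184 and 117 in the same order, level in CD4 cells and 1.58-fold higher in CD8 cells. With the probe sets averaged the log2 difference of Ifngr2 was 0.97 in CD4 cells.

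**Figure D3:**
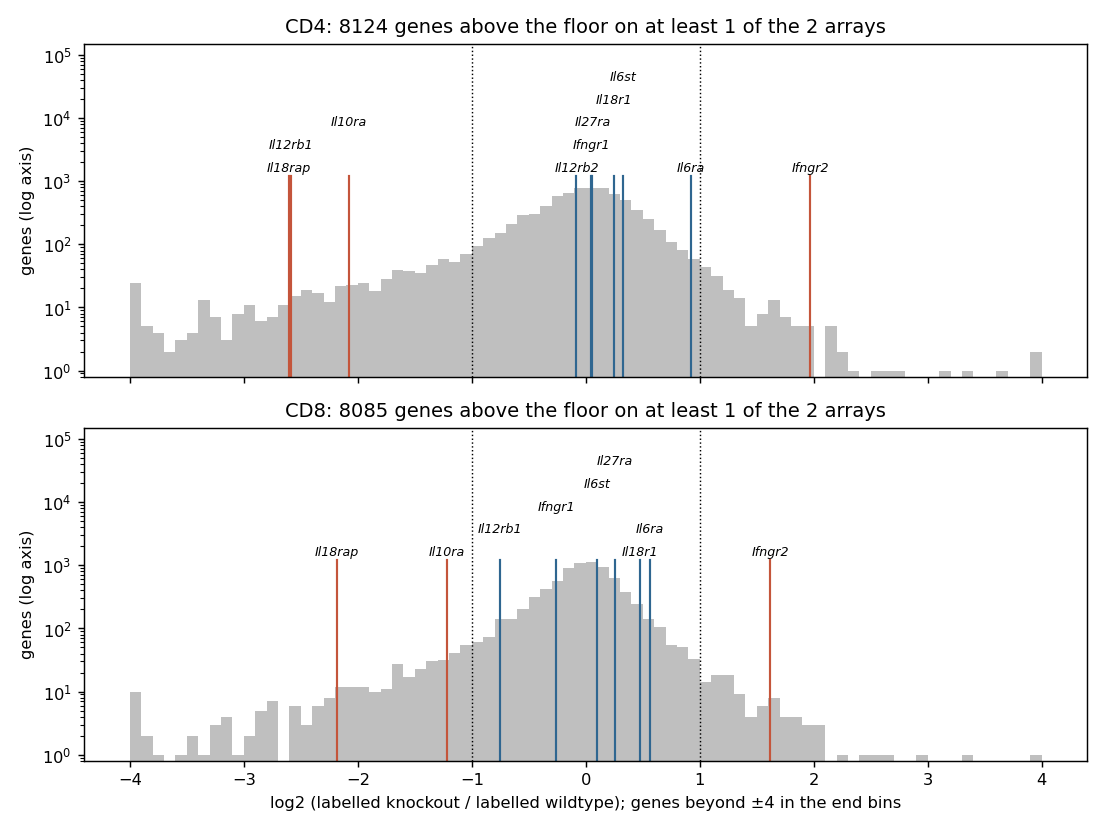
Number of genes (log axis) by log2 difference of the array labelled knockout over wildtype, for 8124 genes in CD4 and 8085 in CD8 cells above the floor on at least 1 of the arrays compared; coloured lines mark the receptor genes, red where at least 2-fold apart. Il18rap, Il12rb1 and Il10ra sit in the lower tail in CD4 cells, Ifngr2 sits in the upper tail in both subsets, and the remaining receptors sit near the centre or, for Il6ra, at 0.92 and 0.56.

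Few of these receptors were 2-fold apart between CD8 and CD4 cells, and each such difference rests on 1 pair of arrays. Under the wildtype label the summed MHC class II signal was 48632 on the CD8 array and 4834 on the CD4 array. The dendritic and myeloid sums were 3685 and 1162 in the same order. Their part in the receptor differences under that label, or in the subset term of the fit, was not tested. On the arrays labelled wildtype, 1 of 10 genes was at least 2-fold higher in CD8 cells, Ifngr1 at 2.12-fold, beside 3.2% of all genes compared, and 1 was at least 2-fold lower, Il12rb1 at 2.24-fold, beside 5.15%. On the arrays labelled knockout, 1 of 9 was at least 2-fold higher in CD8 cells, Il10ra at 2.21-fold by 1448731_at, beside 2.14%, and 1 was at least 2-fold lower, Ifngr2 at 2.02-fold, beside 1.4%. The Il10ra probe set 1437808_x_at went the other way there (log2 -0.28), and the Ifngr2 probe set 1423558_at was 1.45-fold lower. With probe sets averaged, 0 of the genes were 2-fold apart under the knockout label. Ifngr1 and Il18r1 were higher in CD8 cells under both labels: Ifngr1 by log2 differences of 1.09 and 0.78 and Il18r1 by 0.60 and 0.83, wildtype label first. Il12rb1 was lower in CD8 cells under the wildtype label (-1.16) and higher under the knockout label (0.67). The subset term of the fit called 0 of the 10 genes (limma; 0.174% of all genes were called higher and 0.0698% lower in CD8 cells); at an unadjusted p under 0.05 it held Il18r1, Ifngr1 and Ifngr2, 3 of 10 beside 9.56% of all genes. With genes left out of the fit unless every array read above the floor, the adjusted p of the subset term was 0.0463 for Il18r1 and 0.0161 for Ifngr1. Both were also called with the floor at the 25th percentile, with no floor and with a pseudocount of 16. Neither was called under the other alternatives or in the fit as reported.

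The probe sets of a gene gave a second view of how firm these values are. For the 4 genes with more than 1 probe set above the floor throughout, 16 differences could be compared (the labelled genotypes in each subset, and the subsets under each label), and the probe sets had the same sign in 8 and opposite signs in 8. For Il6st the opposite signs came with log2 differences of 0.20 or less in size. For Il10ra all 4 differences had opposite signs, and in CD4 cells its probe sets lay 2.98 apart on the log2 scale between the labelled genotypes. Il12rb1, Il12rb2, Il18r1, Il18rap, Il27ra and Ifngr1 have 1 probe set each, so no such check exists for Il18rap, the gene that was called.

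Genes with a like course over the 4 arrays were looked up for the 2 receptors of widest range among those above the floor throughout. Distance is the Euclidean distance between log2 values centred on their mean, over 4 arrays and 6881 other genes, and is given with no test. Nearest to Ifngr2 were Bcl3 (0.54), an IkB family member, Tgfbr3 (0.61), a TGF-beta co-receptor, and Spsb1 (0.63), which encodes a SOCS box protein. Bcl3 read 1749 and 715 in CD4 and 1333 and 413 in CD8 cells, knockout label first. Nearest to Il12rb1 were Mad2l1 (0.13), a mitotic checkpoint gene, Slc39a4 (0.21), a zinc transporter gene, and Ezh2 (0.25), which encodes a histone methyltransferase. Mad2l1 read 490 and 2713 in CD4 and 735 and 1361 in CD8 cells. For Il12rb1 14 genes lay within a distance of 0.5, and for Ifngr2 0.

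Genes around the receptors were read by lists, whose counts stand beside the shares of all genes given above: 7.72% lower and 2.07% higher in CD4 cells, and 4.24% and 1.21% in CD8 cells. Of 13 genes of ligands and soluble inhibitors on the arrays 9 were above the floor; 3 of 8 compared in CD4 and 4 of 6 in CD8 cells were at least 2-fold lower and 0 higher, with median log2 differences of -0.46 and -1.23. Ifng, the ligand of Ifngr1, read 24.6 on knockout CD4, 1995 on wildtype CD4, 123 on knockout CD8 and 868 on wildtype CD8 and fell (limma, adjusted p = 0.0366). Ebi3, a subunit of IL-27, read 71.5 and 903 in CD4 and 11 and 218 in CD8 cells, knockout label first. Il10 read 95.7 and 312 in CD4 cells and was below the floor on both CD8 arrays. Il1b read 119 and 53.1 in CD4 and 100 and 287 in CD8 cells. Il12b read 222 on wildtype CD8 and was below the floor elsewhere. Both were highest on the array with the high MHC class II and dendritic sums, whose part in the ligand counts was not tested. Il11, a cytokine that signals through gp130, was higher by log2 differences of 0.57 and, at the least, 0.65. Il18 was read at no more than 178, and Il6 and Il12a were below the floor on all arrays.

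Among partner and related receptor chains, 6 of 9 were above the floor; in CD4 cells 1 of 6 was at least 2-fold lower and in CD8 cells 0, with medians of -0.43 and -0.38. Il1r2, a decoy receptor for IL-1, read 52.1 and 397 in CD4 and 76.1 and 124 in CD8 cells. Ifnar2, a chain of the type I interferon receptor, differed 1.85-fold in CD4 and 1.60-fold in CD8 cells, lower under the knockout label (limma, adjusted p = 0.106). Il1rap, the accessory chain of the IL-1 receptor, had log2 differences of -0.71 and -0.36.

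The 18 kinases, STAT factors and SOCS genes had medians of 0.01 and -0.01. Socs3, which blocks gp130 signals, rose in the fit (limma, adjusted p = 0.0138), and read 14757 and 2971 in CD4 and 10557 and 3229 in CD8 cells, knockout label first. Socs2, another feedback inhibitor, read 110 and 701 in CD4 and 38.7 and 132 in CD8 cells. Ptpn11, which encodes the phosphatase SHP2, was lower by a log2 difference of -1.27 in CD4 cells and level in CD8 cells (-0.05), and Pias3, an inhibitor of STAT3, had -0.98 and -0.67. Stat4, the factor that carries the IL-12 signal, had -0.14 and -0.38. Of the 7 adaptors and kinases below the IL-18 receptor, 0 differed by 2-fold in either subset and none passed in the limma fit; the widest were Tab1 (-0.57 and 0.12), Tab2 (-0.63 and -0.04), Map3k7 (-0.59 and -0.07) and Traf6 (0.59 and -0.03).

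**Figure D4:**
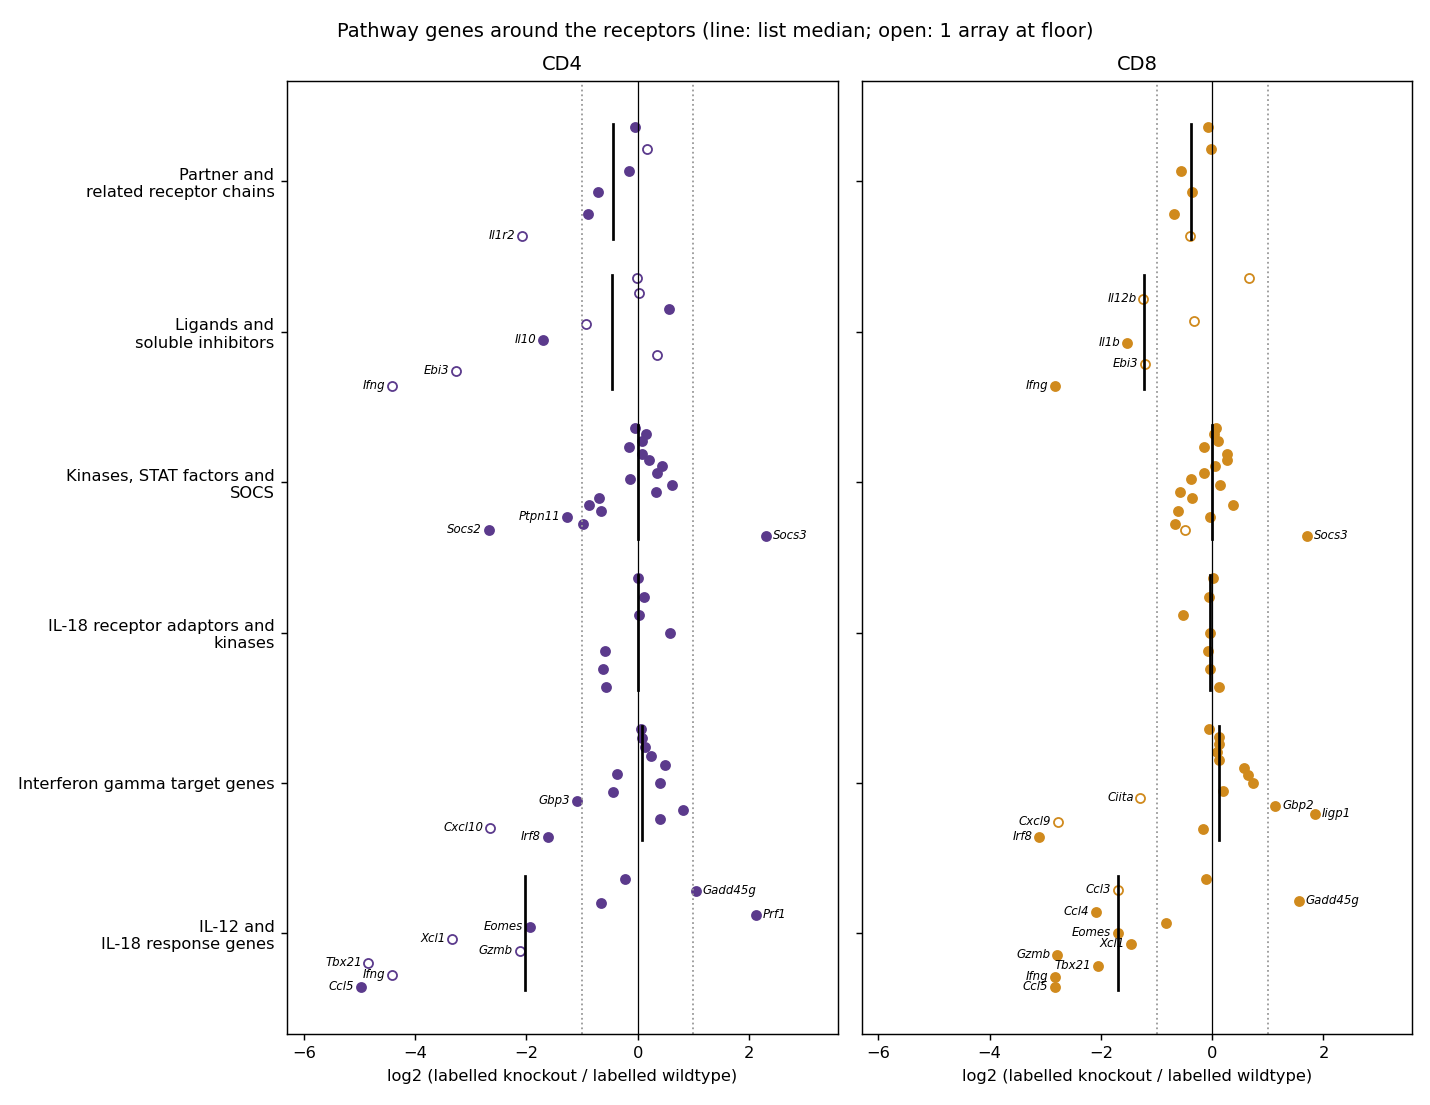
Log2 difference of the array labelled knockout over wildtype for genes of 6 pathway lists in CD4 (left) and CD8 cells (right); each point is a gene above the floor on at least 1 of the arrays compared, open points have 1 array below the floor, black lines are list medians, and genes at least 2-fold apart are named. The IL-12 and IL-18 response genes have medians of -2.03 and -1.70, whereas the kinase and adaptor lists centre near 0. Socs3 lies far to the right, at 2.31 in CD4 cells, where Socs2 (-2.68) and Ptpn11 (-1.27) lie to the left.

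Interferon gamma target genes were mixed, with medians of 0.08 over 13 genes in CD4 and 0.12 over 15 in CD8 cells. In CD4 cells 3 were at least 2-fold lower and 0 higher, and in CD8 cells 3 were lower and 2 higher. Irf8, a transcription factor that B cells and dendritic cells carry at a high level, read 298 and 912 in CD4 and 309 and 2672 in CD8 cells. Cxcl10, a chemokine gene, read 43.1 and 592 in CD4 cells, and Cxcl9 read 641 on wildtype CD8 and below the floor elsewhere. Iigp1, an immunity-related GTPase gene, went the other way, with 2046 against 570 in CD8 cells. None passed the threshold in the limma fit, where the lowest adjusted p of the list was 0.0529, for Gbp2, a guanylate-binding protein gene that was higher by log2 differences of 0.82 and 1.14.

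Of the genes that IL-12 and IL-18 are known to raise, 6 of 10 were at least 2-fold lower and 2 higher in CD4 cells and 8 of 11 lower and 1 higher in CD8 cells, with medians of -2.03 and -1.70. Limma called 3 as fallen, Ccl5, Ifng and Eomes. Tbx21, the T-bet gene of type 1 helper cells, read 65.6 and 2689 in CD4 and 864 and 3599 in CD8 cells (adjusted p = 0.0825), and the granzyme gene Gzmb 2.6 and 409 in CD4 and 230 and 1581 in CD8 cells (adjusted p = 0.0502). Within the same list Gadd45g, a stress kinase activator gene that these cytokines induce, was higher by log2 differences of 1.05 and 1.56, and the perforin gene Prf1 differed by 2.13 in CD4 cells and -0.84 in CD8 cells on the log2 scale. Ccl5, Ifng, Eomes and Tbx21 are also among the memory and effector genes that went along with the Cd44 difference.

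**Figure D5:**
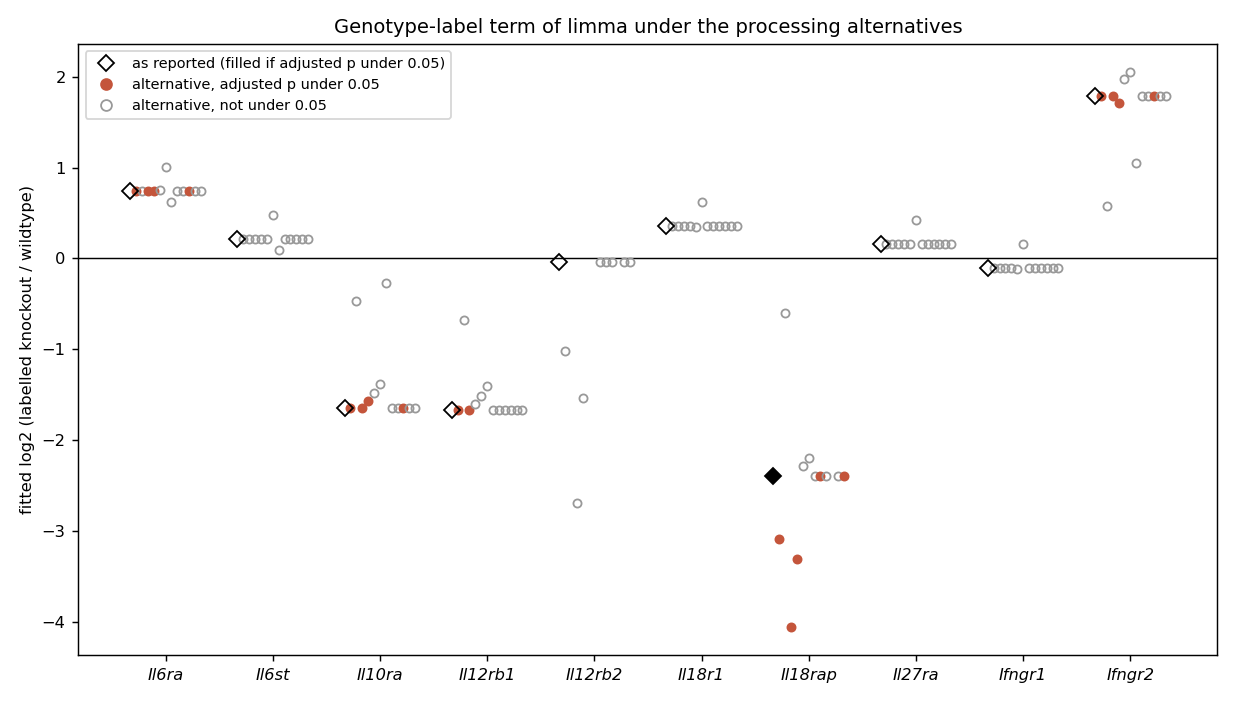
Genotype-label term fitted by limma (vertical axis, log2 of labelled knockout over wildtype) for the 10 receptor genes as reported (diamonds) and under the processing alternatives (circles); filled symbols have an adjusted p under 0.05. Il18rap is the only filled diamond, Ifngr2, Il6ra, Il10ra and Il12rb1 are filled under some alternatives, and Ifngr1 is the gene whose circles cross 0.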

How the data were processed

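RNA extracted with TRIzol was labelled with biotin and measured on Affymetrix MOE430A_2.0 arrays, per the labels' protocols. GCOS 1.4 and MAS5 are named in the submitters' processing notes, and no further step is recorded. What the authors deposited is 1 intensity per probe set on a linear scale, with 2% trimmed means of 1000.41 to 1000.46 over the arrays. Of 22690 probe sets, 64 controls were left out; 20380 carried 1 symbol, 691 several and 1555 none in the supplied platform annotation, and 20351 of the first matched RefSeq, whose current symbols were used. Where a gene had several probe sets, the one of highest average log2 signal stood for it. Signals below the floor were set to it before log2; where this held for 1 array of a pair, the difference is a lower bound. Differences within 1 pair of arrays have no test. The 8596 genes that exceeded the floor anywhere entered a limma fit (lmFit, then eBayes with a trend; 1 residual and 5.11 prior degrees of freedom), adjusted by Benjamini-Hochberg at 0.05. Nothing says that CD4 and CD8 samples came from different mice, so p-values describe these arrays only. The members and the lists were chosen with earlier results of these data known. Named genes are all members, Gfi1, Cd44, the 4 genes of each pathway list with the largest mean difference, and the 3 nearest in course. Others were named after their values were seen, such as Il18, Il6, Il12a, Il12b, Stat4, Eomes, Gbp2, Gadd45g, Prf1 and Il11. So were Cd22, Cd79b, Blk, Ighm, Ncr1, Klrd1, Nkg7, Cd4, Cd8a and Cd8b1. Software was R 4.3.3 with limma 3.58.1 and Python 3.11.15 with pandas 2.3.3, numpy 2.4.6 and matplotlib 3.10.9. Alternatives covered the floor, scaling, choice of probe set, filter and prior.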

Additional observations from a re-analysis of the deposited data

Results flagged for a closer look

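For 3 receptor genes a difference ran opposite ways in the groups it was measured in; with 1 array per group this was not tested. Il12rb1 was 2.24-fold lower in CD8 than in CD4 cells under the wildtype label and 1.59-fold higher under the knockout label, so that the differences lie 1.84 apart on the log2 scale. Il6st was higher in CD8 cells under the wildtype label by a log2 value of 0.10 and lower under the knockout label (-0.13), a gap of -0.23. For Ifngr1 the labelled genotypes differed by 0.05 in CD4 and -0.26 in CD8 cells, a gap of -0.31. The Il6st and Ifngr1 gaps are small beside the distance between probe sets of Ifngr2 or Il10ra.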

How the results depend on the processing

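With 1 array per group no array could be left out and the model still fitted. The labels do not say which samples shared mice, so no analysis paired by mouse was run. Differences between the mice of the labelled genotypes cannot be told apart from the label. The floor decided how many genes counted as at least 2-fold apart. As reported these were 795 between labelled genotypes in CD4 and 441 in CD8 cells, and 696 and 276 between subsets under the wildtype and the knockout label. In that order they were 1512, 1122, 1436 and 888 with the floor at the 25th percentile, 328, 133, 268 and 83 at the 60th, 3337, 2970, 3179 and 2891 with no floor, and 2267, 1842, 2096 and 1737 with a pseudocount of 16. Of the receptors, 2 rather than 4 were 2-fold apart in CD4 cells at the 60th percentile (Il12rb1 and Ifngr2) and 2 with averaged probe sets (Il12rb1 and Il18rap). In CD8 cells 0 rather than 3 were at the 60th percentile. Between subsets under the knockout label 1 rather than 2 was at the 60th percentile, 4 with no floor and 0 with averaged probe sets.

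The genotype term of limma, with 47 genes called as reported, gave 505 with the floor at the 25th and 31 at the 60th percentile, 352 with no floor, 266 with the pseudocount, 15 after quantile normalization, 17 with median centring, 10 with averaged probe sets, 201 for genes above the floor on every array and 174 over probe sets. Dropping the trend left 0 calls by limma (990 genes had an unadjusted p under 0.05), as did dropping the filter (713). The subset term, with 21, gave 241, 168, 129, 9, 10, 12, 106 and 49 for the same settings without the 60th percentile, 2 without the trend, and limma called 0 without the filter (670 unadjusted). Il18rap kept its call in 5 of 11 alternatives. Il6ra, Il10ra and Ifngr2, not called as reported, were called in 4 each: with the floor at the 25th percentile, no floor, the pseudocount, or genes above the floor on every array. Il12rb1 was called in the first 2 of these. Averaging its probe sets took the log2 difference of Il10ra to -0.39 in CD4 and -0.15 in CD8 cells.

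Median centring turned the genotype term of Ifngr1 from -0.11 to 0.16 and the subset term of Il6st from -0.02 to 0.0077. The subset term of Il12rb2 turned from -0.04 to 0.98 with no floor and to 0.22 with the pseudocount. Centring on medians also moved the median log2 difference of genes above the floor on every array from 0.01 to 0.33 in CD4 and to 0.21 in CD8 cells. With it, the share higher among genes 2-fold apart went from 21.1% to 47.3% in CD4 and from 22.2% to 40.3% in CD8 cells. Quantile normalization gave shares of 33.3% and 33.6%. Signals near the floor, as for Il12rb2, limit what can be read.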
